A study of Mus musculus with 41 samples.

Results

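The wide autosomal Polycomb domains are long stretches of the mouse genome marked by trimethylation of lysine 27 of histone H3 (H3K27me3) in embryonic chondrocytes, the cells of cartilage. Members were chosen by their H3K27me3 cover alone, by merging the authors' group lists of H3K27me3 regions for proliferating chondrocytes (PC) and hypertrophic chondrocytes (HC) on chromosomes 1 to 19. Regions 1.6 kb or less apart were joined, and domains of 16 kb or wider were kept. This gave 684 of 7797 merged domains, or 8.77%, which held 20.2 of the 53.9 Mb in merged domains, or 37.4%. Their widths ran from 16 to 184 kb, with a median of 23.2 kb and quartiles of 19.2 and 32.2 kb. The 43 domains of exactly 16 kb had mean H3K27me3 covers of 71.4% in PC and 92.8% in HC, and the 54 domains of 15.2 kb, just outside the limit, had 73.2% and 87.2%.

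The study asked how histone marks change as chondrocytes pass from proliferation to hypertrophy. PC were sorted by flow cytometry at E13.5, an embryonic day, from mice that carried Tg(Col2a1-cre)1Star, a Cre recombinase driven by Col2a1 sequences. HC were sorted at E15.5 from mice with Tg(Col10a1-cre)1427Vdm, a Cre driven by Col10a1 sequences. Both groups carried the yellow fluorescent reporter Gt(ROSA)26Sortm1(EYFP)Cos, so cell type, age and Cre transgene changed together and cannot be told apart. Each of 6 histone marks had 3 PC and 2 HC libraries with a region list, 30 lists in all. The 11 IgG samples were not analysed here. Separate litters are not stated for libraries of a group, and p-values therefore describe library spread that may be technical.

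Polycomb repressive complex 2 writes H3K27me3, and Polycomb repressive complex 1 binds it and compacts the chromatin. The mark is known for covering CpG-rich promoters of developmental regulators that a cell lineage does not use. In the limb and skeleton it lies over Hox clusters and other patterning genes, whose expression depends on position along the body axes. H3K27me3 and acetylation of the same lysine (H3K27ac) exclude each other on 1 histone tail. A list made from many cells can still hold both over the same bases.

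The letters that carry these results are the small RNAs and promoters enclosed by the domains. Of 919 autosomal microRNA hairpins in the RefSeq table for GRCm38.p6, the assembly named mm10, 37 lay wholly inside a wide domain, or 4.03%, and 76 lay inside any merged domain, or 8.27%. The 28 domains with a microRNA included 8 without a protein-coding promoter. The mature forms below are shown because their host domains are among those described here. Capitals mark the seed, bases 2 to 8 from the 5′ end, which pairs with target messages.
miR-9-5p: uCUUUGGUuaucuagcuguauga
miR-10a-5p: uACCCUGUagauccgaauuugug
miR-10b-5p: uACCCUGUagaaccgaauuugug
miR-196a-5p: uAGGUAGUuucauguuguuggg
miR-196b-5p: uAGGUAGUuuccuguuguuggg
miR-615-3p: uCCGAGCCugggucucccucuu
miR-183-5p: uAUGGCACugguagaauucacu
miR-96-5p: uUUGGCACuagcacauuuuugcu
All 3 hairpins that give miR-9-5p, a neural microRNA, lay in wide domains, at chr3:88215613-88215635, chr7:79505279-79505301 and chr13:83738821-83738843 for the mature form. miR-10a-5p and miR-10b-5p share the seed ACCCUGU and lay in the HoxB domain (chr11:96317186-96317208) and the HoxD domain (chr2:74726074-74726096). miR-196a-5p and miR-196b-5p share the seed AGGUAGU. The first was encoded in both the HoxB (chr11:96265187-96265208) and HoxC (chr15:102973365-102973386) domains and the second in HoxA (chr6:52230129-52230150). miR-615-3p lay in HoxC at chr15:103014969-103014990. miR-183-5p (chr6:30169711-30169732) and miR-96-5p (chr6:30169506-30169528), microRNAs of sensory organs, lay together in a domain of 17.6 kb with no protein-coding promoter.

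Promoter sequences were available for 448 of the 667 genes with a promoter in a wide domain. The 3 printed each span 250 bases before to 50 after the start in GRCm38.p6, 5′ to 3′ on the gene's own strand, with every CG pair in capitals. Hoxd13 (chr2:74667975-74668274, plus strand) stands for Hox promoters covered by H3K27me3 in every library. Twist1 (chr12:33957421-33957720, plus strand) was free of H3K27me3 in PC and covered in HC. Nkx3-2 (chr5:41764171-41764470, minus strand) stands for promoters covered by H3K27me3 in every library with less H3K27ac in HC. For all 3, the listed start is the end of the gene record on which the windows below are centred.
Hoxd13: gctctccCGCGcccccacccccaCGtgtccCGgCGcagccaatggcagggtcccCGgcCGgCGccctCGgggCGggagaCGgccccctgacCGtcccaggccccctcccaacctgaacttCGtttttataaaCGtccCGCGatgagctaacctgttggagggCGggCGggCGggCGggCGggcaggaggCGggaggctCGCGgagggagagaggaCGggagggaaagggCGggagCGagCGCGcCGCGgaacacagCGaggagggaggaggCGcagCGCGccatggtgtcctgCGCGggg
Twist1: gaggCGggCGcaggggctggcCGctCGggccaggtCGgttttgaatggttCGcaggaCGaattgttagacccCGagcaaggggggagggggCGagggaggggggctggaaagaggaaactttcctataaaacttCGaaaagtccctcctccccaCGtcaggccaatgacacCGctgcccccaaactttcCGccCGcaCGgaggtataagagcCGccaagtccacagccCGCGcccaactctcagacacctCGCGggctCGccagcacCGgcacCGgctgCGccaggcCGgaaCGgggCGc
Nkx3-2: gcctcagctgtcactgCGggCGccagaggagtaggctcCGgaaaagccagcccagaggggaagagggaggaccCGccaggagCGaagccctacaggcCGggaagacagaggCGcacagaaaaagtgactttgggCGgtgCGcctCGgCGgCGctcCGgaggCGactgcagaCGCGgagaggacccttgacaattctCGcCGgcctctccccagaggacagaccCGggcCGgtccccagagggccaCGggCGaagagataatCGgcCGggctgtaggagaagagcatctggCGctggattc
The CG count was 37 for Hoxd13, 27 for Twist1 and 25 for Nkx3-2. Of all 20084 autosomal promoter sequences of this length, 7.61%, 21.5% and 25.7% held at least as many. The motif searched was CG, which reads the same on both strands. The 553 promoter sequences wholly inside wide domains had a median of 17 CG pairs, against 18 for 2195 in narrower domains and 12 for 17181 outside all domains. At least 10 CG pairs were found in 74.0%, 77.0% and 54.9% of these sets.

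The labels were checked against marker promoters, taking H3K27ac cover within 2 kb of the 5′ end of the gene record. Where no strand was listed, the ends were chosen as given below. Whether transcripts of these genes start elsewhere was not checked. A cover of 0 for H3K27ac, or a high cover for H3K27me3, may therefore stem from the window. Summed over 7 chondrocyte markers, cover was 533 to 571 points in the PC libraries and 278 to 359 in HC. Col9a1 and Matn1 were at 0 in both HC libraries, and Col2a1 was at 0 in all 3 PC libraries. The 5 hypertrophic markers summed to 124 to 169 points in PC and 4.6 to 30 in HC, and Ihh, Runx2 and Pth1r were at 0 in both HC libraries. The summed hypertrophic H3K27ac was thus lower in HC than in PC, against the labels, but the single genes differed. Runx2 (55.1% or more) and Pth1r (53.6% or more) carried the mark in every PC library, and Ihh in PC library 5 alone. Col10a1 was at 5.0%, 0% and 0% in PC and at 30% and 0% in HC. Mef2c was at 0% in each PC library and at 0% and 4.6% in HC. These 2 genes thus did not share the fall. Marker promoters also differed in H3K27me3. The Col10a1 promoter, whose gene drives the Cre used to sort HC, was at 0% H3K27me3 in each PC library and at 100% and 99.5% in HC. Sox9, a chondrocyte regulator, was at 0% in PC and at 98.0% and 88.0% in HC, and Sp7, an osteoblast regulator, at 0% in PC and at 90% and 92.5% in HC. Col2a1 was at 100% in all 5 libraries. The Cre transgenes carry Col2a1 sequences in PC and Col10a1 sequences in HC. For these 2 genes, signal from the transgene and from the gene itself cannot be told apart. Among other cell types, H3K27ac over 4 neural markers summed to 85 to 112 points in PC and 15 to 42.2 in HC, without overlap. Over 4 epidermal markers it was 0 to 5.0 and 5.0 to 17.5, over 5 muscle markers 26.2 to 70.0 and 58.4 to 178, and over 4 endothelial markers 35 to 75 and 47.5 to 115. Over 4 osteoblast markers it was 54.6 to 102 and 20 to 90, and over 3 blood markers 15 to 20 and 10 to 25. The part of these marker differences in the results below was not tested. The files give no read counts, so depth is unknown. The H3K27me3 lists held 57.5 to 74.7 Mb per PC library and 63.2 to 73.2 Mb per HC library on the autosomes.

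H3K27me3 covered the wide domains more fully in HC than in PC. The mean cover of a domain was 85.0% in PC library 2, 79.2% in PC library 6 and 77.3% in PC library 8, or 80.5% ± 4.01 (SD, n = 3). It was 94.1% in HC library 2 and 93.4% in HC library 3, or 93.8% ± 0.495 (SD, n = 2). Both HC libraries lay above all 3 PC libraries. In sorted bulk samples, fewer cells with the mark and less mark per cell cannot be told apart. These values come from the libraries behind the lists that chose the domains, so they are a description and carry no test. The HC group list held 48.5 Mb and the PC list 34.1 Mb. A median of 100% of a wide domain lay in the HC list and 76.9% in the PC list. Higher HC cover thus follows in part from the rule, and how far was not tested. The narrower domains were less covered in each library, at 66.0% ± 4.85 in PC and 83.2% ± 0.919 in HC. The median difference, HC minus PC, was 10.7 points over wide domains and 16.7 over narrower ones.

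**Figure D1:**
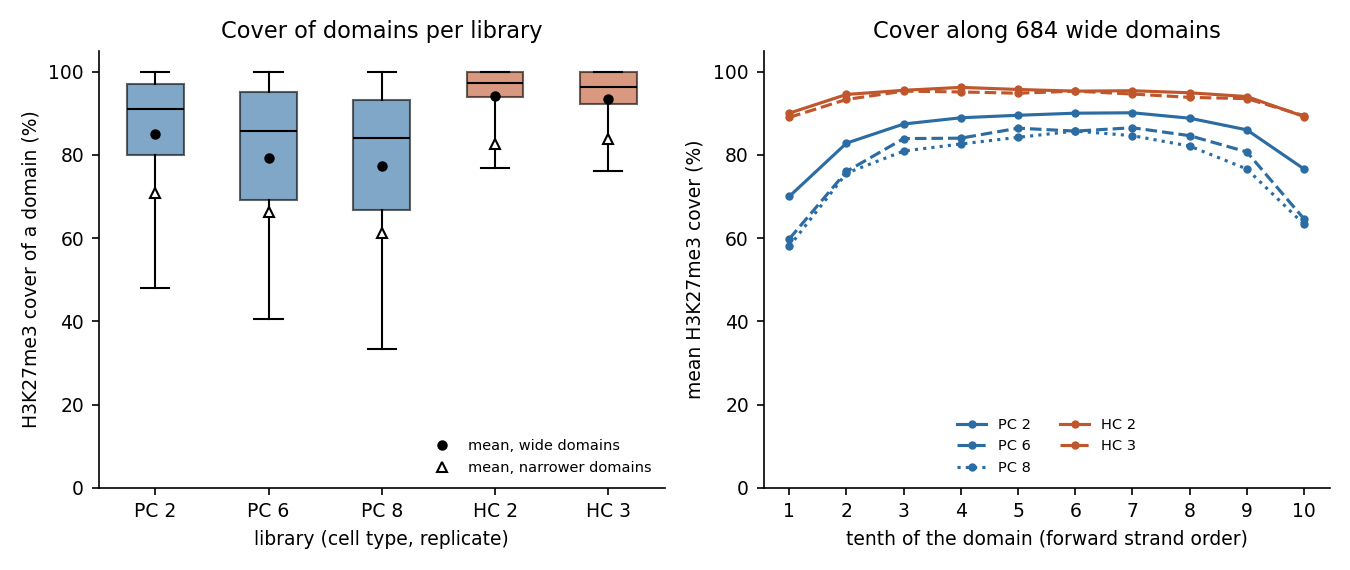
Left, percent of each wide domain covered by H3K27me3 in each library (box, quartiles with the median; whiskers, 5th to 95th percentile; dot, mean), with the mean over narrower domains as a triangle. Right, mean cover in 10 equal bins along the domain, where PC libraries fall to 58.0% to 70.0% in the first bin and HC libraries stay at 89.0% to 90%.

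The difference was greatest at the domain ends. In the first of 10 equal bins along the domain the PC libraries had 58.0% to 70.0% cover and the HC libraries 89.0% and 90%. In the fifth bin the PC libraries had 84.2% to 89.5% and the HC libraries 94.8% and 95.7%. Of 1368 domain edges, 883 came from the HC group list alone, 253 from the PC list alone and 232 from both. Most ends thus lay where the PC list had no region. Lower PC cover in the end bins follows in part from the rule, so nothing is read from it. The Jaccard index inside wide domains, the share of combined bases that both lists hold, was 0.934 for the HC pair. It was 0.83 to 0.846 among PC libraries and 0.766 to 0.835 between cell types, so the ranges within PC and between cell types overlapped.

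By library, 346 wide domains were fuller in both HC than in all 3 PC libraries, or 50.6%, where 35.5% of all merged domains were. Another 52, or 7.6%, were fuller in every PC library, where 13.8% of all merged domains were. The cover of the other 286 overlapped between the groups. Since the rule used the same lists, nothing is read from these shares. The HC mean was the higher in 561 domains, the lower in 115 and equal in 8. The median difference was 11.3 points over 343 domains of 16 to 24 kb, 11.9 over 162 of 24 to 32 kb, 8.97 over 145 of 32 to 64 kb and 6.17 over 34 of 64 kb or more. The HC-fuller domains in these classes numbered 159, 88, 80 and 19. Differences of 50 points or more were seen in 36 of the HC-fuller and 11 of the PC-fuller domains.

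**Figure D2:**
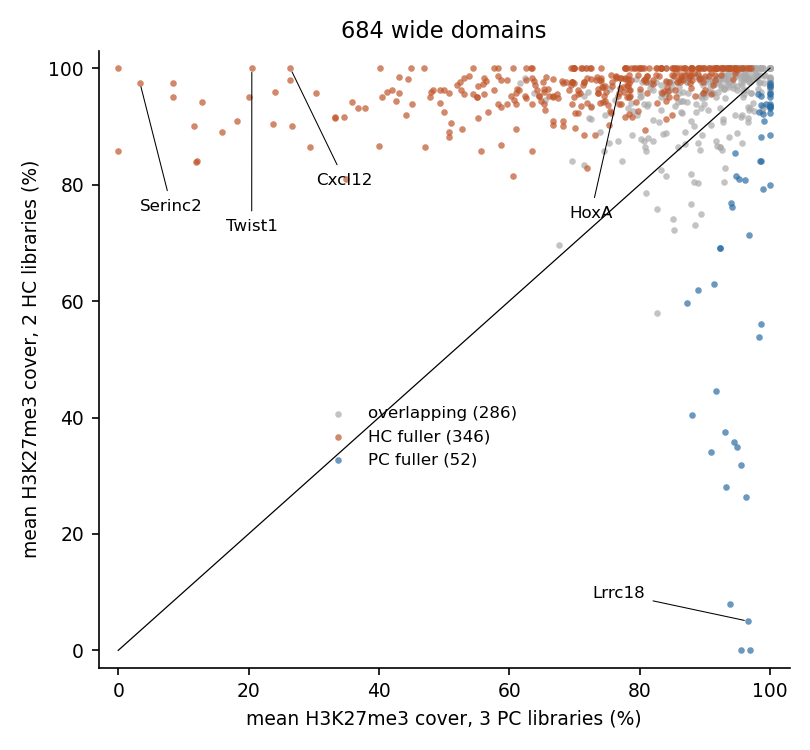
Each point is 1 of 684 wide domains, placed by its mean H3K27me3 cover in the 3 PC libraries (horizontal, percent) and the 2 HC libraries (vertical, percent), coloured by whether the libraries of the groups overlap. Most points lie above the diagonal: 346 domains were fuller in every HC library and 52 in every PC library.

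Among domains fuller in HC, the greatest gap lay at chr8:121287201-121304000, 157 kb from Foxl1, with 0% in each PC library and 100% in both HC libraries. The domain of Serinc2, a membrane protein of the serine incorporator family (chr4:130272001-130288000), had 10%, 0% and 0% in PC and 100% and 95% in HC. A domain across an end of Sez6l (chr5:112418401-112434400), a neuronal gene, without its promoter, had 10%, 0% and 15% against 95% and 100%. In these domains the groups lay at opposite ends of the scale. The domain of Mogat1, an acyltransferase of lipid synthesis (chr1:78496001-78512000), had 10%, 10% and 5.0% against 100% and 90%. A domain 3.3 kb from Dnajc11 (chr4:151913601-151930400) had 0% in each PC library and 85.7% in both HC libraries. None of these groups overlapped.

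Of the PC-fuller domains, 28 of 52, or 53.8%, held a promoter, beside 248 of 346 HC-fuller domains, or 71.7%. A domain 178 kb from BC052040 (chr2:115385601-115403200) had 95.5%, 100% and 95.5% in PC and 0% in both HC libraries. Another 545 kb from Sall1 (chr8:89589601-89607200) had 95.5%, 90.9% and 100% against 0% and 0%. Both lay far from any protein-coding gene and were absent from the HC libraries. The domain of Lrrc18 (chr14:32977601-32993600), which lies within Wdfy4, had 95%, 95% and 100% against 10% and 0%. A 30.4 kb domain inside Ntm, which encodes the neural adhesion protein neurotrimin (chr9:29315201-29345600), had 94.7%, 97.4% and 89.5% against 2.63% and 13.2%. A domain 9.4 kb from Aldh1a2, a retinoic acid synthesis gene (chr9:71305601-71334400), had 97.2%, 97.2% and 94.4% against 19.4% and 33.3%. In all 5 domains every PC library was at 89.5% or more and every HC library at 33.3% or less.

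Most genes of the Hox, homeobox, T-box, Pax and Gata lists had their promoter in a wide domain. A promoter is the window of 2 kb on each side of the outermost 5′ end of the gene record, or, where no strand was listed, of the end with H3K4me3 or both ends, and was assigned when at least 50% of it lay in a domain. For 61 of 448 such genes with a listed transcript start, every listed start lay over 2 kb from that end. Wide domains held the promoters of 667 of 20661 autosomal protein-coding genes, or 3.23%, and any merged domain held 14.7%. All 39 Hox genes on the lists were in wide domains, as were 82 of 99 other homeobox genes, 10 of 11 Iroquois and sine oculis homeobox genes, 12 of 16 T-box genes, 7 of 9 Pax genes and 4 of 5 Gata genes. Shares were lower for Fox genes (19 of 41), Wnt ligands (8 of 19), basic helix-loop-helix genes (19 of 51) and Sox genes (6 of 18). Together 213 of 355 genes of the developmental lists had a promoter in 168 wide domains, which is 24.6% of the wide domains.

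**Figure D3:**
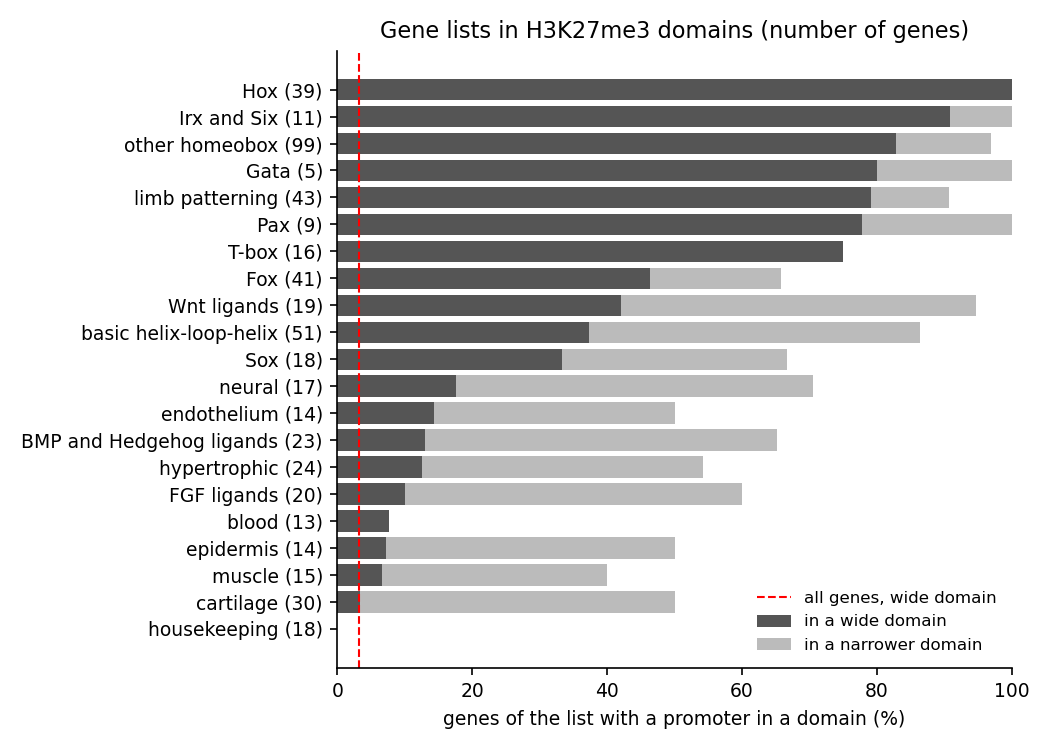
Percent of each gene list (number of autosomal genes in brackets) with a promoter in a wide domain (dark) or in a narrower merged domain (light). The dashed line marks 3.23%, the share of all autosomal protein-coding genes in wide domains, which the Hox list exceeds with 100% and the housekeeping list does not reach with 0%.

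Lists of differentiated tissues had 1 to 3 members each inside, at 3.33% (cartilage) to 17.6% (neural), where 3.23% of all autosomal genes were. Narrower domains held 14 cartilage, 10 hypertrophic, 9 neural, 5 endothelial, 5 muscle, 6 epidermis and 0 blood genes of these lists. They held 2368 of all 20661 genes. The cartilage list had 1 of 30 genes, Matn4, a matrilin of the cartilage matrix, and the hypertrophic list 3 of 24. Neural genes had 3 of 17, endothelial genes 2 of 14, and the muscle, epidermis and blood lists 1 gene each of 15, 14 and 13. FGF ligands had 2 of 20 and BMP and Hedgehog ligands 3 of 23. None of 18 housekeeping genes lay in a wide domain, and none lay in a narrower one. No difference between lists was tested.

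The 5 Hox domains were among the widest. HoxA (chr6:52145601-52329600, 184 kb, with Evx1) was the widest of all, and HoxC (chr15:102895201-103044000) spanned 148.8 kb. HoxD (chr2:74639201-74771200) spanned 132 kb and HoxB (chr11:96247201-96377600) 130.4 kb, with Hoxb13 in a domain of its own of 99.2 kb. The other domains among the 10 widest held Pax2 (147.2 kb), a gene of kidney and brain, the protocadherin gamma cluster on chromosome 18 (133.6 kb), Rhcg with Mir9-3 (131.2 kb), Pax3 (128.8 kb), a gene of muscle precursors and neural crest, the histocompatibility gene H2-T3 (124 kb) and Foxf1 (111.2 kb). The protocadherin and H2-T3 genes have related copies close by, and how reads shared between copies were placed is not given in the sources used here.

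HoxA had 76.1%, 80% and 75.7% cover in PC and 99.1% and 97.4% in HC. The groups did not overlap. The Hoxa4 promoter was at 0% in each PC library and at 100% and 90% in HC. No strand was listed for Hoxa4, so its values for every mark pool the windows at both ends of the gene. The Hoxa5 promoter had 15.3%, 100% and 24.7% in PC and 100% in both HC libraries, so 1 PC library matched HC. Hoxb2 in the HoxB domain had 90%, 49.8% and 40.1% against 100% in both HC libraries. HoxC differed less, at 98.4%, 97.3% and 95.7% against 100% and 100%. Of 39 Hox promoters, 28 were fully covered in all 5 libraries and 38 in both HC libraries.

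**Figure D4:**
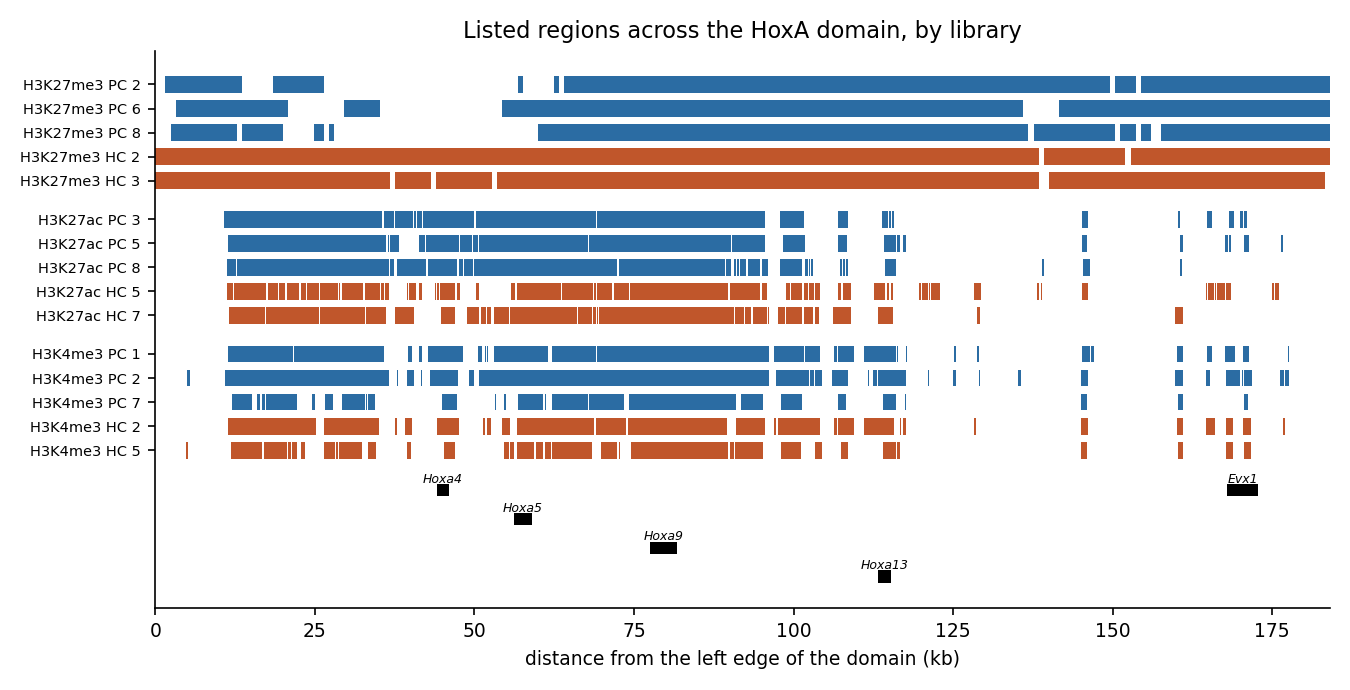
Listed regions of H3K27me3, H3K27ac and H3K4me3 across the HoxA domain in each library (PC blue, HC orange), with distance from the left edge of the domain in kb and the spans of Hoxa4, Hoxa5, Hoxa9, Hoxa13 and Evx1 in black. PC lists of H3K27me3 are open around Hoxa4 where H3K27ac regions lie, while both HC lists cover 97.4% or more of the domain.

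Limb patterning genes made up another group, with 34 of 43 in wide domains. Promoters of Tbx5 (forelimb), Tbx4 and Pitx1 (hindlimb), Shh and Hand2 (posterior limb), Lhx2 and Lhx9 (limb outgrowth), Shox2 (proximal limb), Barx1, Hoxa13 and Hoxd13 (hand and foot) were fully covered by H3K27me3 in all 5 libraries. They differed in the marks of active promoters. Shh and Tbx5 were at 0% for H3K27ac in all 5 libraries. Shox2 had 80.7%, 50% and 95% in PC and 100% and 85.7% in HC. H3K27ac cover at Pitx1 was 40.5%, 42.5% and 15% against 33.0% and 63.2%. At Shox2 and Pitx1 the groups overlapped. The Pitx1 domain (chr13:55821601-55862400) filled from 74.5%, 72.5% and 62.7% in PC to 100% in both HC libraries. Sox9, the master regulator of cartilage, had no promoter in a wide domain.

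Twist1, a basic helix-loop-helix factor of mesenchyme, lay in a domain at chr12:33952001-33972800. The domain had 34.6%, 26.9% and 0% H3K27me3 in PC and 100% in both HC libraries. The promoter printed above was at 0% in every PC and 100% in every HC library. H3K27ac there was 98.2%, 96.8% and 100% in PC and 100% and 86.8% in HC, and H3K4me3 was 96.8% or more in all 5 libraries. The acetylated and methylated marks thus lay on the same window in HC. Of the 667 promoters in wide domains, 2 others were at 0% in all PC and at 50% or more in both HC libraries, Hoxa4 and 4932438H23Rik, and none of the 667 showed the opposite. The listed start of 4932438H23Rik is 61.0 kb from its window. The domain of Cxcl12, a chemokine of stromal cells (chr6:117155201-117174400), had 33.3%, 16.7% and 29.2% in PC and 100% in both HC libraries.

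The cartilage and hypertrophic genes in wide domains showed no common pattern. The Matn4 and Rbpjl domain (chr2:164385601-164415200) had 48.6%, 45.9% and 73.0% H3K27me3 in PC and 100% and 94.6% in HC, without overlap. H3K27ac at the Matn4 promoter was 71.0%, 70.0% and 81.0% in PC and 40.0% and 50% in HC, a difference of -29.0 points that did not pass (limma adjusted p = 0.396). Foxa2, a forkhead factor of the hypertrophic programme, lay in a domain of 44.0 kb covered at 100%, 94.5% and 98.2% in PC and 100% in both HC libraries. Dlx5 and Dlx6, homeobox genes of hypertrophy and limb, shared a domain of 43.2 kb with 100%, 92.6% and 90.7% against 100% and 98.1%. For Foxa2 and the Dlx pair the groups overlapped.

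A promoter was missing from 199 wide domains, of which 76 overlapped a protein-coding gene body and 123 lay outside genes, at a median of 54.3 kb from the nearest. A long noncoding RNA gene overlapped 84 of the 199. Narrower members more often lacked a promoter: 64.7% of the 343 domains of 16 to 24 kb held one, against 91.2% of the 34 domains of 64 kb or more. The miR-9-2 domain (chr13:83709601-83746400) was 36.8 kb wide, with 95.7%, 93.5% and 91.3% cover in PC and 100% in both HC libraries. The domain of miR-129-2 was fully covered in all 5 libraries.

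Chromosome 4 held 96 wide domains, or 7.23 per 100 protein-coding genes, and 44 of them had no promoter. The other autosomes had 1.69 to 4.97 per 100 genes. From 120 Mb to the end, chromosome 4 held 65 wide domains, 33 without a promoter. Of 254 stretches of 5 Mb with a wide domain, 5 had 11 or more, and 4 of those were on chromosome 4, where the median was 2 per stretch over all autosomes. From chr4:146476001-146501600 to chr4:147815201-147833600, 6 domains near zinc finger genes such as Zfp981 and Zfp982 had at least 83.0% H3K9me3 and at least 59.4% H3K27me3 in every library. As for the protocadherin and H2-T3 domains, how reads shared between related copies were placed here is not given in the sources used.

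H3K9me3, a mark of heterochromatin, was the 1 other mark that covered wide domains more than narrower ones. It lay on 38.9%, 36.6% and 42.2% of wide-domain bases in PC and on 35.5% and 37.7% in HC, or 39.2% ± 2.81 (SD, n = 3) and 36.6% ± 1.56 (SD, n = 2). In narrower domains it lay on 26.2% ± 5.32 and 18.9% ± 2.33, and the wide value was the higher in each of the 5 libraries. H3K4me3 covered 13.6% ± 4.22 of wide-domain bases in PC and 11.8% ± 2.62 in HC, against 18.4% ± 3.79 and 17.1% ± 2.4 of narrower ones. H3K27ac covered 7.52% ± 1.47 and 7.56% ± 1.87, H3K9ac 5.38% ± 0.909 and 4.25% ± 0.368, and H3K36me3, a mark of transcribed gene bodies, 9.54% ± 3.15 and 5.04% ± 1.45. Each of these was lower in wide than in narrower domains in all 5 libraries of its mark. H3K4me3 of at least 200 bp was nonetheless present in all 5 libraries in 544 wide domains, or 79.5%, and H3K9me3 in 451, or 65.9%.

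Domains with different H3K9me3 cover differed in content. A mean over the 5 libraries of 50% to 80% was found in 170 domains, of which 93, or 54.7%, held a gene of the developmental lists. Of 386 domains at 10% to 50%, 73, or 18.9%, held such a gene. Among 100 domains under 10% H3K9me3, 2 held such a gene and the median H3K27me3 difference was 22.6 points, HC minus PC. Another 28 domains reached a mean of 80% or more. None of those 28 held a developmental list gene, 7 had a promoter, and 9 overlapped or held a Zfp gene. Their median H3K27me3 difference was -0.416 points, and H3K36me3 covered 31.1% ± 0.449 of them in PC and 30.9% ± 1.08 in HC.

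Cover of the 5 marks that the rule did not use was compared between HC and PC with limma over all merged domains that 2 or more lists touched. A call is a Benjamini-Hochberg adjusted p under 0.05. H3K36me3 was tested in 245 wide domains, and 1, or 0.408%, fell in HC, where 1.52% of all 2371 tested domains did. That domain covers Igf2, an imprinted growth factor gene (chr7:142653601-142672000). H3K36me3 lay on 91.3%, 87.0% and 91.3% of it in PC and on 60.9% and 65.2% in HC, all HC values below all PC values. The difference was -26.8 points (SE 2.29, limma adjusted p = 0.0415), and leaving out PC library 5, PC library 6 or either HC library ended the call. With lists cut to equal covered length it was -16.7 points (limma adjusted p = 0.876), and on the log2 scale the limma adjusted p was 0.0795. The HC lists of H3K36me3 were shorter, at 368 and 461 Mb against 468 to 596 Mb in PC. H3K27me3 covered 87.0% to 95.7% of the same domain in PC and 100% and 95.7% in HC.

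H3K9me3 was tested in 645 wide domains, and 2, or 0.31%, fell in HC, where 1.39% of all 4181 tested did. The domain of Shank1, a scaffold protein of synapses (chr7:44326401-44367200), had 39.2%, 37.3% and 31.4% in PC and 0% and 1.96% in HC. The HC libraries were near 0, and the difference was -35.0 points (SE 3.03, limma adjusted p = 0.0358). H3K27me3 in that domain was also lower in HC, at 86.3% and 76.5% against 90.2% to 98.0%. The other domain, 56.7 kb from Foxd2 (chr4:114800801-114849600), had 4.92% in each PC library and 0% in both HC libraries (SE 0.408, limma adjusted p = 0.0211). The Shank1 call ended without PC library 3 or either HC library, and the call near Foxd2 ended without any 1 of the 5 libraries.

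No wide domain passed for H3K4me3, H3K9ac or H3K27ac in limma. Over all merged domains, 0.0228% passed as higher and 0.0% as lower in HC for H3K4me3, and 0.0% in either direction for H3K9ac and H3K27ac. At an unadjusted p under 0.05, 0 of 614 wide domains were higher and 7 lower for H3K4me3, where 1.21% and 1.98% of all tested domains were. For H3K9ac 10 were higher and 23 lower of 466, where 4.71% and 4.74% of all were. For H3K27ac 17 were higher and 16 lower of 503, where 4.82% and 5.58% of all were. These shares of wide domains, 0.0% to 4.94%, lay near or below those of all domains. No wide domain rose in limma for H3K36me3 or H3K9me3, where 0.295% and 0.263% of all tested domains did. At an unadjusted p under 0.05, 3 were higher and 12 lower for H3K36me3, where 1.56% and 6.45% of all were. For H3K9me3, 23 were higher and 44 lower, where 2.75% and 7.92% of all were. The median difference over tested wide domains was -2.94 points for H3K9me3 and -6.9 for H3K36me3, beside -6.25 and -7.95 over all tested domains.

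At single promoters, the test over all autosomal genes called 1 gene in a wide domain, and the call depended on which start was used. H3K27ac around the outermost 5′ end of Pax9, a paired-box factor of the sclerotome that forms vertebrae, fell from 100%, 82.3% and 90% in PC to 5.0% and 0% in HC. The difference was -88.3 points (SE 7.57, limma adjusted p = 0.0455). It was the 1 gene called of 430 tested in wide domains, or 0.233%, where 0.0226% of all 13276 tested genes fell. H3K27me3 covered both Pax9 windows at 100% in all 5 libraries. Over the whole Pax9 domain (chr12:56672001-56706400) it was 81.4%, 72.1% and 81.4% in PC and 100% and 97.7% in HC. The difference kept its sign without any 1 library, at -92.5 to -83.7 points, but the call ended each time. With lists cut to equal covered length it was -79.9 points (limma adjusted p = 0.532). The transcript start that RefSeq lists for Pax9 lies 3.78 kb away. Around it H3K27ac was 95%, 90% and 95% in PC and 51.8% and 35% in HC, so HC kept the mark there. The HC values were still below all PC values, but the difference of -50.0 points (SE 7.51) did not pass (limma adjusted p = 0.17). That window was added after the values were seen.

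Pax1 and Nkx3-2, further sclerotome regulators, had lower values in HC that did not pass the test. H3K27ac around the outermost 5′ end of Pax1 was 45.0%, 55.0% and 63.2% in PC and 0% in both HC libraries, a difference of -54.4 points (limma adjusted p = 0.174). H3K9ac there was 60%, 76.8% and 65.0% against 0% and 0%, a difference of -67.3 points (limma adjusted p = 0.0741). H3K27ac at Nkx3-2 was 100%, 95% and 99.5% in PC and 44.5% and 64.5% in HC (difference -43.7 points, limma adjusted p = 0.224). At each of these the HC values lay below all PC values. Around the listed Pax1 start, 3.06 kb away, H3K27ac was 90%, 59.8% and 80% in PC and 25% and 10% in HC. Both promoters were fully covered by H3K27me3 in all 5 libraries.

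At many Hox promoters both HC libraries had less acetylation than every PC library, though none passed the test. Of 35 Hox promoters tested for H3K9ac, 16, or 45.7%, were lower in both HC than in all PC libraries and 0 were higher, where 10.2% of all 12891 tested genes were lower and 4.46% higher. For H3K27ac, 13 of 38, or 34.2%, were lower and 2 higher, where 12.4% and 6.59% of all tested genes were. For H3K4me3, 5 of 39 were lower and 1 higher, where 4.08% and 3.05% were. The medians were -14.2 points for H3K9ac and -5.0 for H3K27ac, beside -1.81 and -2.5 over all tested genes. Lower H3K9ac was not particular to Hox. It was found at 28.3% of 46 other homeobox promoters and 30.4% of 135 in the developmental lists together. Of all 393 tested in wide domains it was found at 18.8%. In these sets 6.52%, 8.15% and 10.2% were higher. For H3K27ac, 6 of 60 other homeobox promoters were lower and 4 higher, and 15.6% and 9.07% of all 430 in wide domains. The H3K9ac lists held 31.9 to 52.8 Mb in PC and 28.9 and 34.0 Mb in HC, and the H3K27ac lists 68.5 to 96.5 Mb and 44.8 and 90 Mb. Neighbouring Hox windows share regions, so the Hox counts are not of separate sites. With lists cut to equal covered length, 16 of 32 Hox promoters were lower for H3K9ac and 11 of 32 for H3K27ac. Of other homeobox promoters 5 of 33 and 3 of 32 were then lower, beside 7.2% and 9.05% of all tested genes.

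The Hox differences were uneven along the clusters. H3K9ac at Hoxb6 was 95%, 92.7% and 97.5% in PC and 40.2% and 30.6% in HC, a difference of -59.7 points (limma adjusted p = 0.0741). H3K9ac at Hoxb5 was 95%, 95% and 92.5% against 33.5% and 28.5%, a difference of -63.2 points (limma adjusted p = 0.0741). H3K27ac at Hoxa4 was 100%, 95% and 90% against 63.5% and 43.5% (difference -41.5 points, limma adjusted p = 0.273), at the promoter with H3K27me3 in HC libraries alone. In contrast, Hoxa9 was at 100% for H3K27ac in all 5 libraries beside full H3K27me3. Hoxd12 went the other way, with 24.7%, 14.7% and 0% for H3K27ac in PC and 75.3% and 64.7% in HC, a difference of 56.9 points (limma adjusted p = 0.196). Hoxc4 gave opposite signs at its 2 starts, 32.9 points around the outermost end and -15.6 around the listed start.

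**Figure D5:**
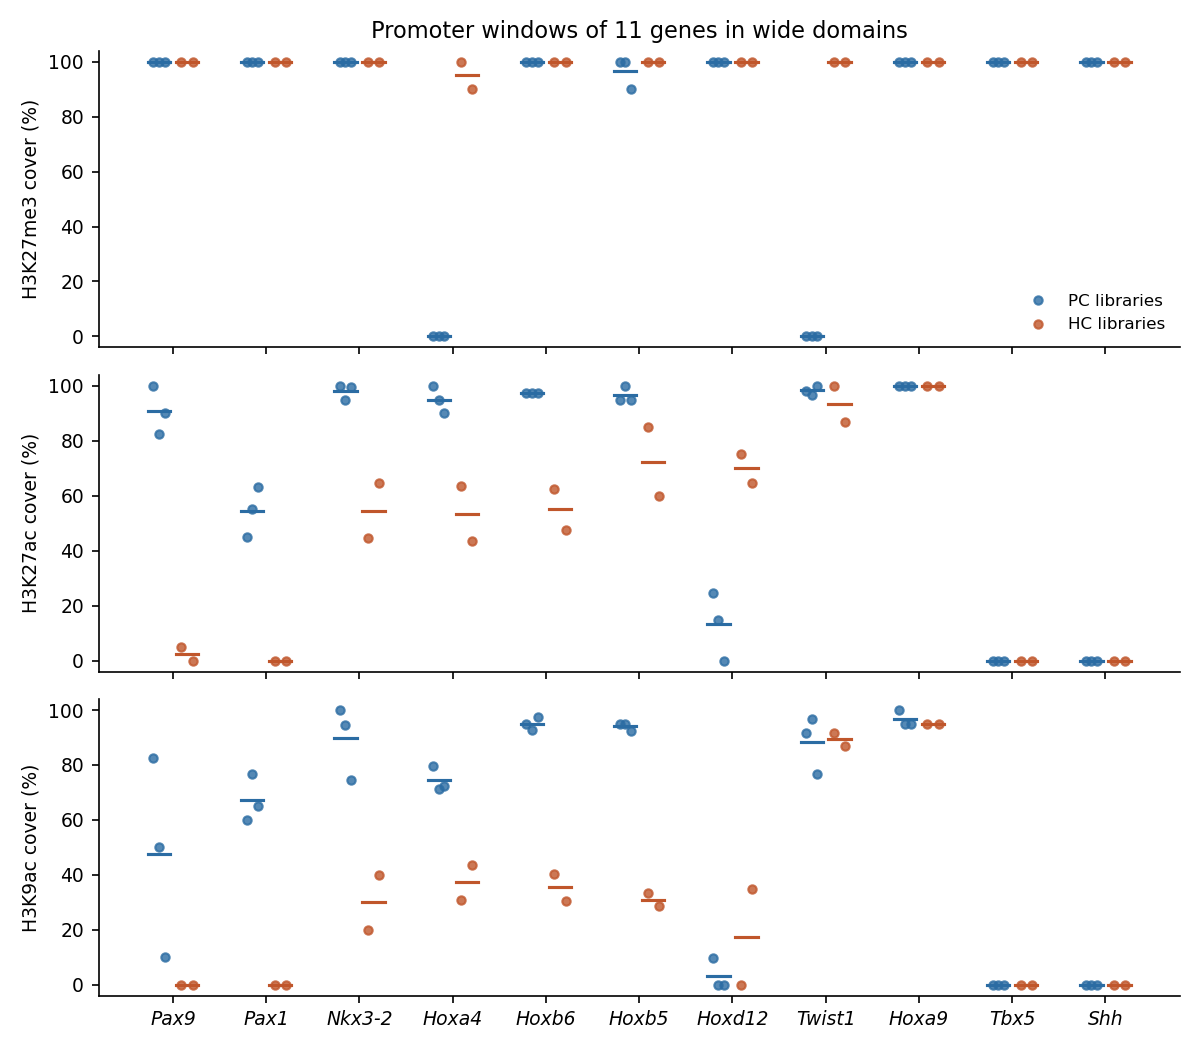
Percent of the promoter window covered by H3K27me3 (top), H3K27ac (middle) and H3K9ac (bottom) for 11 genes in wide domains, named after their values were seen. Each dot is 1 library (PC blue, HC orange) and each bar the group mean; around its outermost 5′ end Pax9 falls from 82.3% or more to 5.0% or less for H3K27ac while H3K27me3 stays at 100%.

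Among all 213 developmental genes in wide domains, Pax9 was the only one called for any of H3K4me3, H3K9ac and H3K27ac with these windows. For the 667 genes together no promoter passed for H3K4me3 or H3K9ac in limma, where 0.00738% and 0.00776% of all tested genes rose and 0.0% fell. At an unadjusted p under 0.05, 13 of 603 (2.16%) were higher and 24 (3.98%) lower for H3K4me3, where 1.09% and 1.34% of all genes were. For H3K9ac, 23 of 393 (5.85%) were higher and 52 (13.2%) lower, where 1.92% and 3.76% were. For H3K27ac, 26 of 430 (6.05%) were higher and 41 (9.53%) lower, where 2.82% and 5.54% were. Unlike the shares of wide domains, these lay above those of all genes in both directions. H3K4me3 was present in all 5 libraries at 526 of the 667 promoters, or 78.9%, against 62.2% of all genes. H3K27ac was present in all 5 at 228, or 34.2%, against 53.8% of all genes. Of the 432 promoters fully covered by H3K27me3 in all 5 libraries, 119 carried H3K27ac in all 5 and 89 in none.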

How the data were processed

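Histone mark libraries of sorted chondrocytes were analysed from the region lists that the authors deposited, 3 PC and 2 HC lists for each of 6 marks. The deposited lists give other values than counts, namely region coordinates with no score, so no depth or interval can be given. All edges were multiples of 800 bp for H3K27me3, H3K36me3 and H3K9me3 and of 200 bp for other marks, as tested on the files. FastQC, Picard and the build mm10 stand in the submitters' processing notes. Not given in the sources used here: the aligner, region caller and any use of IgG. The authors also deposited a group list per cell type for H3K27me3, of 34.1 Mb for PC and 48.5 Mb for HC on the autosomes. Of each, 96.0% lay in every library of its group.

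Cover is the percent of a domain or promoter window inside a library's regions. limma 3.58.1 in R 4.3.3 was fitted with trend and robust settings to features covered in at least 2 of 5 libraries. Adjusted p-values are Benjamini-Hochberg over all features of the mark. Promoter windows sat at the 5′ end of the gene record, following the RefSeq strand for 16456 genes, the end with H3K4me3 for 2272 and both ends for 1933. Scripts were tested on simulated data. Alternatives covered joining distance, width, list length, filters, scale, window and each library; windows at the listed RefSeq starts were added after seeing the data. The members and gene lists were chosen with earlier results of these data known. Named domains were the 10 widest, those with Hox, cartilage or hypertrophic genes, the 5 with the greatest H3K27me3 difference in each direction and the called ones. Named genes were their list members, called genes and 15 patterning genes. Twist1, Cxcl12, the microRNA domains and chromosome 4 were named after their values were seen.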

Additional observations from a re-analysis of the deposited data

How the results depend on the processing

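The 684 domains became 1072 at a width minimum of 12 kb and 341 at 24 kb. At 12 kb, 86 were fuller in every PC library. At 24 kb, 187 were fuller in every HC and 23 in every PC library. Without 1 library, the domains fuller in every PC library numbered 55 to 81, the highest without HC replicate 2. Rebuilding the group lists gave 674 domains, and 695 to 986 when 1 library was left out. The difference in mean H3K27me3 cover was 11.6 points or more in each alternative run that gave it. Runs without 1 library or at equal covered length kept the 684 domains for this difference and for the fuller counts. Neither was computed on rebuilt domains, so these runs cannot show how the choice of domains by the same libraries bears on them.

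Calls depended on the processing, and the cause was not tested. With lists cut to equal covered length, H3K36me3 calls lower in HC went to 0, H3K9me3 calls to 1 higher and 1 lower, H3K9ac promoter calls to 1 lower and H3K27ac promoter calls to 0. The Pax9 difference was then -79.9 points and the Igf2 difference -16.7. Requiring 1 library gave 2 H3K36me3 domains higher, and 0 H3K9me3 domains lower. Without a filter, 2 H3K27ac domains were higher and 1 H3K9me3 domain lower, and H3K36me3 could not be fitted. On the log2(percent + 1) scale, 0 H3K36me3 domains were lower, and 3 H3K9me3 domains were higher and 22 lower. Without trend and robust settings, 1 H3K9me3 domain was lower. With windows of 1 kb, 1 H3K4me3 promoter was higher and 5 lower of 573 tested in wide domains. For H3K9ac 4 were higher and 11 lower of 357, and for H3K27ac 5 were higher and 6 lower of 398. Calls rose over all genes too, in both directions together to 163 of 13158 for H3K4me3, 264 of 12438 for H3K9ac and 185 of 12808 for H3K27ac. Those windows hold few grid steps, and SEs fell to 0.222 points (Hoxa3, H3K9ac). With windows at the listed starts, an alternative chosen after seeing the data, 1 H3K9ac promoter was higher, that of Pax7 (62.5 points, limma adjusted p = 0.0319), and 0 H3K27ac promoters were lower. Hox promoters lower without overlap then numbered 18 of 36 for H3K9ac and 13 of 38 for H3K27ac. Of all genes tested, 10.5% of 13214 and 12.5% of 13600 were lower. Hox promoters higher without overlap numbered 0 and 1, where 4.53% and 6.45% of all were.

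Leaving out 1 library gave 0 to 3 H3K4me3 domains lower, the highest without PC replicate 7, and 0 to 1 H3K9ac domain lower, the highest without PC replicate 3. It gave 0 to 4 H3K36me3 domains higher and 0 to 19 lower, the highest without PC replicates 5 and 4. It gave 0 to 1 H3K9me3 domain higher and 0 to 9 lower, the highest without PC replicate 3. For promoters it gave 0 to 3 higher and 0 to 2 lower for H3K4me3, and 0 to 0 lower for H3K27ac. For H3K9ac, PC and HC share replicate numbers 2 and 3, whose deviations from the group means correlated at -0.04 and 0.05 over domains. The fit with a replicate block called 0 domains and 0 promoters in wide domains in either direction. For the other marks no paired analysis was possible because PC and HC share 1 number or none.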
